A study of Homo sapiens with 3 samples.

Results

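Upstream peaks are places where a chromatin immunoprecipitation (ChIP) signal was called 2 to 20 kb before the start site of a gene, outside the promoter class that the depositors drew within 2 kb of a start. They were taken from the peak tables of both antibodies, keeping for each peak the transcript whose start site was nearest, and a peak was a member where that row carried the class upstream. There were 3448 members among 25592 peaks in all. The Flag-USP39 list gave 1502 of its 11565 peaks, which is 13.0% (95% Wilson interval 12.4 to 13.6). The POLR2A list gave 1946 of its 14027 peaks, which is 13.9% (13.3 to 14.5). The choice used position only, so the tags of a peak, its overlap with the other list and the promoter peaks of its gene were free to vary.

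The study used A2780, a human cell line labelled as serous ovarian cancer, in which Flag-tagged USP39 was present. An anti-Flag library (Flag-USP39), an anti-POLR2A library named in the design as the positive control, and an input library from 10% of the genomic DNA were sequenced, 1 library each, and both peak lists were called against that 1 input. No treatment, time or second genotype was compared, and how the tagged protein was introduced, at what level, and whether the cells were 1 clone is not stated in the labels. With 1 library per antibody there is no replicate error and no test: intervals below cover counting error over peaks or genes only.

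USP39 belongs by sequence to the ubiquitin-specific proteases and works in splicing, where it is part of the tri-snRNP that delivers small nuclear RNAs to the spliceosome. POLR2A is the largest subunit of RNA polymerase II, the enzyme that makes messenger RNA and most long noncoding RNA. Polymerase II is classically found at promoters, along the bodies of active genes, beyond their 3′ ends, and at enhancers, so a position some kilobases before one gene can be an enhancer, a promoter that is not annotated, or the body of a neighbouring gene. In compact gene clusters the end of one gene often lies a few kilobases before the start of the next.

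The 62327 tags in Flag-USP39 peaks and 86228 tags in POLR2A peaks are all that the tables show of depth, and the total tags per library are unknown. Tag counts below are raw and were not scaled between the libraries. The lists were also cut differently: the lowest score (the log10 of the p-value times minus 10) was 50 for Flag-USP39 and 40 for POLR2A. The smallest peaks had 3 Flag-USP39 or 4 POLR2A tags. Of epithelial and ovarian markers (among them EPCAM, KRT8, PAX8 and MUC16), 0 of 8 had a Flag-USP39 promoter peak and 0 of 8 a POLR2A promoter peak. Over all protein-coding genes these shares were 2.19% for Flag-USP39 and 9.48% for POLR2A, so 0 of 8 is no check of the cell label. Keratin genes, described below, had a promoter peak at 19 of 55 in each list. Among blood, liver, muscle and neuron markers the only promoter peak was at MYOD1, with 4 tags in the POLR2A list. PAX8 and RBFOX3 each had an upstream peak in the POLR2A list. At this depth a missing peak does not show that a gene was silent.

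The promoters of 4 genes on which later results turn are shown first. KRT71 and KRT75, keratins of the hair follicle, each had an upstream peak and a promoter peak in both lists. HNRNPA2B1, which encodes an RNA-binding protein of pre-mRNA, and EEF2, which encodes the elongation factor that moves the ribosome along mRNA, each held in their bodies POLR2A peaks that the table assigned upstream of a neighbour, and each had a POLR2A promoter peak of its own. Each sequence is the 250 bases before the start site from RefSeq, assembly GRCh38.p14, read 5′ to 3′ on the gene's strand. Capitals mark a TATA box (TATAAA) or a CCAAT box (CCAAT, or ATTGG on the other strand).
KRT71: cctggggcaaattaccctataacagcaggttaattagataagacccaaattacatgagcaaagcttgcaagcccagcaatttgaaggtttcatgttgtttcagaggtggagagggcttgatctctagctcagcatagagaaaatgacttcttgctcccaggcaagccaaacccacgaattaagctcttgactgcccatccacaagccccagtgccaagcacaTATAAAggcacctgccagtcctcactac
KRT75: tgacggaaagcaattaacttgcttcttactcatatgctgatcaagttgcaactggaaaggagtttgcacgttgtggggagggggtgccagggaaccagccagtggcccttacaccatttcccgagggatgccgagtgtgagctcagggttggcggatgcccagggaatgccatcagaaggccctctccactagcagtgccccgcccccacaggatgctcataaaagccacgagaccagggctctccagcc
HNRNPA2B1: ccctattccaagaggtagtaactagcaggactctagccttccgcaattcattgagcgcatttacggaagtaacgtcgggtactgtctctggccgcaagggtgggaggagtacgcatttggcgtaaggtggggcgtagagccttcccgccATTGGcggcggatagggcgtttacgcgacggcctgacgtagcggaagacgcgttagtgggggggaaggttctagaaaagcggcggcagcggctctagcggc
EEF2: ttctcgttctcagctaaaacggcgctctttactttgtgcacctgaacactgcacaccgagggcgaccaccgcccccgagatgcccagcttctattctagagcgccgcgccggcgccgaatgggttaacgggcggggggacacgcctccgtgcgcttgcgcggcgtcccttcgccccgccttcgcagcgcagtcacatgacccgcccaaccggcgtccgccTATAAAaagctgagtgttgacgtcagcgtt

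The TATA box began 28 bp before the start in KRT71 and 30 bp before it in EEF2, and the CCAAT box of HNRNPA2B1 lay on the other strand, 101 bp before the start. The KRT75 window held neither set of letters. Searched on both strands, TATAAA occurred in 10.7% and CCAAT in 32.0% of the 35116 RefSeq promoter windows of this length. A match is a description of letters, not of a bound factor. In the 4 lines GRCh38.p14 places KRT71 at chr12:52553146-52553395, KRT75 at chr12:52434372-52434621, HNRNPA2B1 at chr7:26200747-26200996 and EEF2 at chr19:3985464-3985713, all on the minus strand. All peak positions from here on are in hg19, the build of the peak tables.

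Upstream peaks lay at every distance between the limits and thinned out with distance in both lists. In the Flag-USP39 list the median distance of the peak centre to the assigned start was 9732 bp (95% interval of the median 9415 to 10364), and in the POLR2A list 9506 bp (9226 to 9871). The range was 2004 to 19996 bp for Flag-USP39 and 2004 to 19997 bp for POLR2A. Per kb of distance, Flag-USP39 had 99.7 peaks from 2 to 5 kb (299 peaks), 93.6 from 5 to 10 kb (468 peaks) and 73.5 from 10 to 20 kb (735 peaks). POLR2A had 139 per kb (417 peaks), 123 per kb (614 peaks) and 91.5 per kb (915 peaks) in the same bins. Peaks with 10 or more tags had a median distance of 9914 bp for Flag-USP39 and 9650 bp for POLR2A, inside the interval of each whole set.

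**Figure D1:**
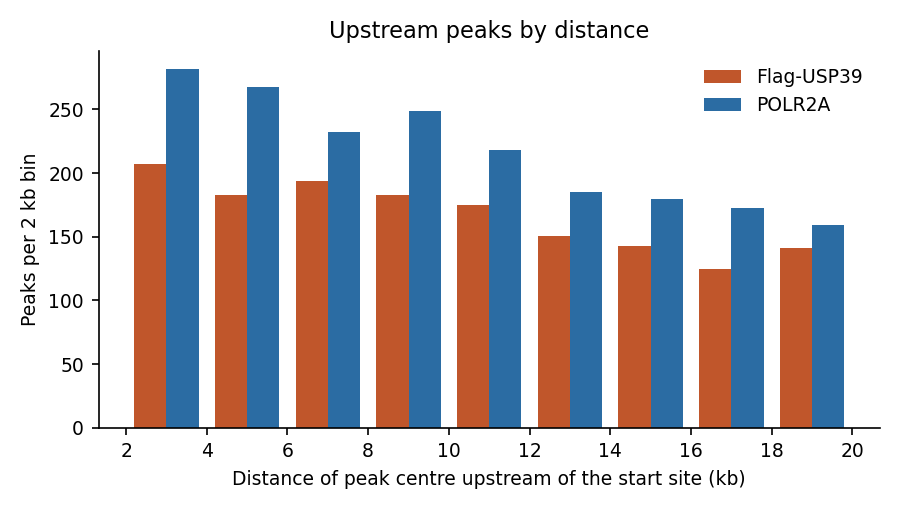
Number of upstream peaks (vertical axis) in each 2 kb bin of distance from the peak centre to the assigned start site (horizontal axis, kb), Flag-USP39 left and POLR2A right in each bin. Counts run from 207 in the nearest to 141 in the farthest bin for Flag-USP39, with gradual thinning in both lists and no gap.

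The limits themselves fell between peaks of the same kind. Just inside 2 kb, the Flag-USP39 list had peaks at OR2A5 (2004 bp, 4 tags) and FANCC (2009 bp, 4 tags), and just outside it at MIR5047 (1998 bp, 11 tags) and MIR8085 (1993 bp, 4 tags). Just inside 20 kb it had MIR4748 (19996 bp, 4 tags) and NKX1-1 (19981 bp, 5 tags), and just outside it WTIP (20006 bp, 4 tags) and SPECC1 (20079 bp, 3 tags). In the POLR2A list PPP1R3B (2004 bp) and GCM2 (2005 bp) were inside the near limit with 4 tags each, and MFAP3L (1998 bp, 5 tags) and B4GALT7 (1989 bp, 4 tags) outside it. At the far limit CCDC138 (19997 bp, 4 tags) and LOC730102 (19994 bp, 5 tags) were inside, and TBC1D14 (20007 bp) and MIR8052 (20031 bp) outside with 4 tags each. At MIR5047 the classes part over one site: the POLR2A peak there (2180 bp, 4 tags) is upstream, and the overlapping Flag-USP39 peak of 11 tags is promoter.

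Most upstream peaks were small. The median was 4 tags in both lists, the median length 316 bp for Flag-USP39 and 500 bp for POLR2A, and the median fold enrichment, the authors' own ratio over background, 32.6 and 23.7. A peak of 10 or more tags was found at 58 Flag-USP39 upstream peaks, 3.86% (3.0 to 4.96), against 2.92% of all Flag-USP39 peaks and 2.78% of the others. In the POLR2A list 92 upstream peaks had 10 or more tags, 4.73% (3.87 to 5.76), against 4.23% of all peaks and 4.15% of the others. With a score of at least 50 in both lists, the Flag-USP39 share of upstream peaks was 3.86% and the POLR2A share 9.35%, so the POLR2A share depends on how far down its list reaches. Over the lists as deposited, the upstream shares of 3.86% and 4.73% stood between the shares of promoter peaks, 9.72% for Flag-USP39 and 9.21% for POLR2A, and those of intergenic peaks, 2.02% and 2.79%. Both lists had a few very large members, with 20 or more tags at 16 Flag-USP39 and 36 POLR2A upstream peaks.

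The upstream share of peaks varied between chromosomes. On chromosome 19 it was highest in both lists, and upstream peaks were 26.6% (22 to 31.9) of Flag-USP39 peaks and 23.7% (20.2 to 27.6) of POLR2A peaks. On chromosome 17 they were 20.4% (16.7 to 24.7) for Flag-USP39 and 20.1% (17.5 to 23) for POLR2A. On chromosome X they were 8.67% (6.58 to 11.3) and 10.9% (8.39 to 14.0), and the POLR2A interval there holds the share of the whole list, 13.9%. On chromosome 16 they were 15.1% (11.8 to 19.2) for Flag-USP39 and 16.2% (13.3 to 19.5) for POLR2A, and each interval holds the share of its whole list. On chromosome 22 the POLR2A share, 14.3% (10.5 to 19.2), did not stand apart from its whole list. The Flag-USP39 share there, 19.4% (13.9 to 26.3), was above the 13.0% of its whole list.

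**Figure D2:**
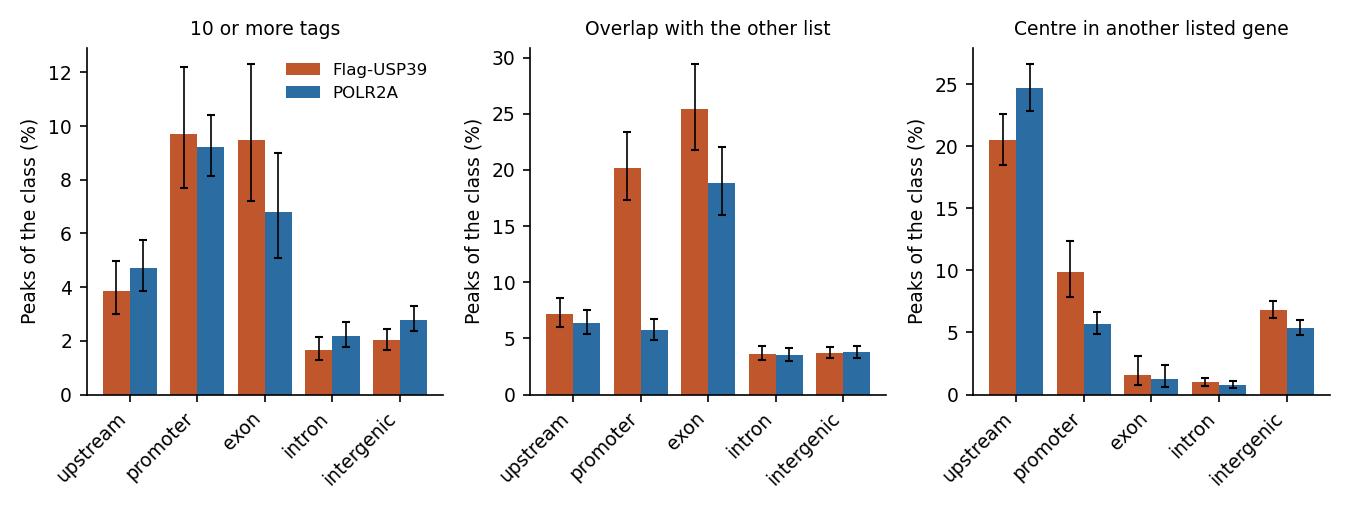
Share of peaks (vertical axes, %) in each deposited class (horizontal axes) that had 10 or more tags, that overlapped a peak of the other antibody, or whose centre lay in a gene of the tables other than those it was assigned to, Flag-USP39 left and POLR2A right, with 95% Wilson intervals. Upstream peaks lie between promoter and intergenic peaks in tags, and have the highest bars in the last panel, 20.5% for Flag-USP39 and 24.7% for POLR2A.

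Few genes with an upstream peak also had a promoter peak in the same table. In the Flag-USP39 list 54 of 1387 such genes did, 3.89% (3.0 to 5.05), against 9.13% of all 7062 genes named in that table and 2.19% of the 20056 protein-coding genes of RefSeq. In the POLR2A list it was 274 of 1703 genes, 16.1% (14.4 to 17.9), against 27.0% of the 8682 genes named and 9.48% of RefSeq protein-coding genes. A gene named in a table has a peak of some class by construction, and one with a promoter peak needs no other, so the first background is high; the second covers all coding genes. Among protein-coding genes alone, 34 of 992 (3.43%) with a Flag-USP39 upstream peak and 208 of 1211 (17.2%) with a POLR2A upstream peak had a promoter peak. With the common score of 50 the share over all genes was 3.89% for Flag-USP39 and 12.0% for POLR2A. Genes with an exon peak had one more often, 7.40% for Flag-USP39 and 21.4% for POLR2A. Genes with an intron peak had one in 3.03% and 12.8% of cases, and genes with an intergenic peak in 2.60% and 8.46%.

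Where the promoter was also marked, the upstream peak was more often large. Of the 64 Flag-USP39 upstream peaks whose gene had a promoter peak, 9.38% (4.37 to 19) had 10 or more tags, against 3.62% (2.77 to 4.71) of the 1438 whose gene had none, and these intervals overlap slightly. Of 365 such POLR2A peaks 8.77% (6.28 to 12.1) did, against 3.80% (2.96 to 4.85) of 1581. The same peaks met a peak of the other list more often, 23.4% against 6.47% for Flag-USP39 and 11.0% against 5.31% for POLR2A. Their centres were also more often in the body of another gene, 45.3% against 19.4% for Flag-USP39 and 41.9% against 20.7% for POLR2A.

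The named examples differ between the lists. In the Flag-USP39 list, 7 of the 10 largest upstream peaks with a promoter peak were at keratin genes, led by KRT75 (24 upstream and 10 promoter tags), KRT6C (18 and 5) and KRT81 (11 and 9). The other 3 were 1 peak of MIR7641-2, a microRNA gene (10 and 38), and 2 peaks of DSG1-AS1, an antisense RNA gene at the desmoglein cluster (9 and 7 upstream tags, 39 promoter tags). MIR7641-2 is listed at many loci. Its upstream and promoter peaks here were assigned to different copies on chromosome 1 and share only the symbol. In the POLR2A list NEMF, a factor of ribosome quality control, led with 107 upstream and 4 promoter tags. KIF2C, a kinesin that takes microtubules apart in mitosis, had upstream peaks of 35 and 27 tags and a promoter peak of 9. TBX2, a T-box repressor, had an upstream peak of 25 tags and a promoter peak of 16, and its neighbour C17orf82 had 19 and 58.

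Upstream peaks of the 2 antibodies were assigned to 202 common genes, 14.6% of the Flag-USP39 genes and 11.9% of the POLR2A genes. Over all RefSeq protein-coding genes, 6.04% had a POLR2A upstream peak and 4.95% a Flag-USP39 one. Of the genes with both an upstream and a promoter peak, 10 were common to both lists: GPX1, KRT16, KRT31, KRT6C, KRT71, KRT75, KRT81, MIR7-1, MIR7641-2 and VIM-AS1. Keratins made up 6 of these 10, and MIR7641-2 was matched by symbol over many listed loci. GPX1, a glutathione peroxidase, had 3 upstream and 15 promoter tags in the Flag-USP39 list, against 4 and 6 in the POLR2A list. VIM-AS1, antisense to the vimentin gene, had 4 and 4 in the Flag-USP39 list, against 7 and 25 in the POLR2A list. Across the lists, 136 of 1387 genes (9.81%) with a Flag-USP39 upstream peak had a POLR2A promoter peak, against 9.48% of RefSeq protein-coding genes and 27.0% of genes named in the POLR2A table. A Flag-USP39 promoter peak was found at 56 of 1703 genes (3.29%) with a POLR2A upstream peak, against 2.19% of protein-coding genes and 9.13% of genes named in the Flag-USP39 table. The genes with an upstream peak are of every kind, 71.0% of them protein-coding for Flag-USP39 and 70.9% for POLR2A. The protein-coding shares in this paragraph are therefore of an unlike set of genes.

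Many peaks classed as upstream of one gene had their centre inside another. The transcript starts and ends in the tables cover 12772 genes, and against these spans the centre of 308 Flag-USP39 upstream peaks, 20.5% (18.5 to 22.6), lay within a gene other than those the peak was assigned to, against 6.74% of all peaks of the list. For POLR2A it was 480 peaks, 24.7% (22.8 to 26.6), against 6.64%. The share over all peaks is low by construction, since exon and intron peaks are assigned to the gene they lie in. Among promoter peaks it was 9.87% for Flag-USP39 and 5.70% for POLR2A, and among intergenic peaks 6.83% and 5.37%. The shares are lower bounds, since genes with no peak are not in the tables, and exons and introns could not be told apart from the spans. Among upstream peaks with 10 or more tags the share was 43.1% (31.2 to 55.9, 25 of 58) for Flag-USP39 and 35.9% (26.8 to 46.1, 33 of 92) for POLR2A. Among peaks under 10 tags it was 19.6% (17.6 to 21.7) and 24.1% (22.2 to 26.1).

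Peaks inside a listed gene and before a listed start were mostly classed upstream. Peaks were counted that lay inside a listed gene and 2 to 20 kb before a listed start, with no listed start within 2 kb. That start could belong to another gene or to another transcript of the same gene. Of these, 373 of 464 Flag-USP39 peaks (80.4%) and 537 of 576 POLR2A peaks (93.2%) were classed upstream. Exon or intron was given to 83 of the Flag-USP39 peaks and 39 of the POLR2A peaks. A listed start nearer than that of the assigned gene existed for 65 Flag-USP39 upstream peaks (4.33%) and 258 POLR2A upstream peaks (13.3%).

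Within the surrounding gene these peaks lay towards the 3′ end. The median position was 77.9% of the way from start to end for Flag-USP39 and 75.5% for POLR2A. The final 25% of the span held 165 of the 308 Flag-USP39 and 245 of the 480 POLR2A peaks, and the first 25% held 30 and 57. The class rule limits these positions by construction. Peaks within 2 kb of a start fall in the promoter class, and members must lie within 20 kb of the assigned start. The part that this rule and the arrangement of neighbouring genes have in these positions was not tested. Of the surrounding genes, 22 of 256 (8.59%, 5.74 to 12.7) had a Flag-USP39 promoter peak, close to the 9.13% of all genes named in that table. For POLR2A it was 138 of 367 (37.6%, 32.8 to 42.7), against 27.0%.

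The DSP gene gave the largest such signal. DSP encodes desmoplakin, which anchors keratin filaments to desmosomes, and its 3′ part lies before the start of SNRNP48, which encodes a protein of the minor spliceosome, so the tables assigned its peaks to SNRNP48. The Flag-USP39 list had 6 peaks there with 18, 4, 6, 33, 12 and 123 tags going toward SNRNP48, 196 in all. The POLR2A list had 5, with 4, 6, 4, 66 and 121 tags, 201 in all. In both lists the tags piled up in the last peak, at chr6:7582639-7586780 for Flag-USP39 (62.5-fold) and chr6:7582762-7586820 for POLR2A (25.2-fold), which were centred 95% and 95.2% along DSP. Neither DSP nor SNRNP48 had a promoter peak in either list.

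NEAT1, the long noncoding RNA on which nuclear paraspeckles form, gave the most peaks. They were assigned to MIR612, a microRNA gene inside the NEAT1 span. The Flag-USP39 list had 9 with 115 tags in all, and the POLR2A list 11 with 74 tags. The largest Flag-USP39 peak, 54 tags at chr11:65191115-65193452, was centred 2015 bp after the NEAT1 start and so missed the promoter class of NEAT1. It overlapped a POLR2A peak of 91 tags at chr11:65189779-65194362, which was centred 1802 bp after that start and was classed as NEAT1 promoter. The other 8 Flag-USP39 peaks had 5 to 11 tags and the 11 POLR2A peaks 4 to 13. MIR612 itself had POLR2A promoter peaks of 4, 4 and 7 tags, which also lay within the NEAT1 span.

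**Figure D3:**
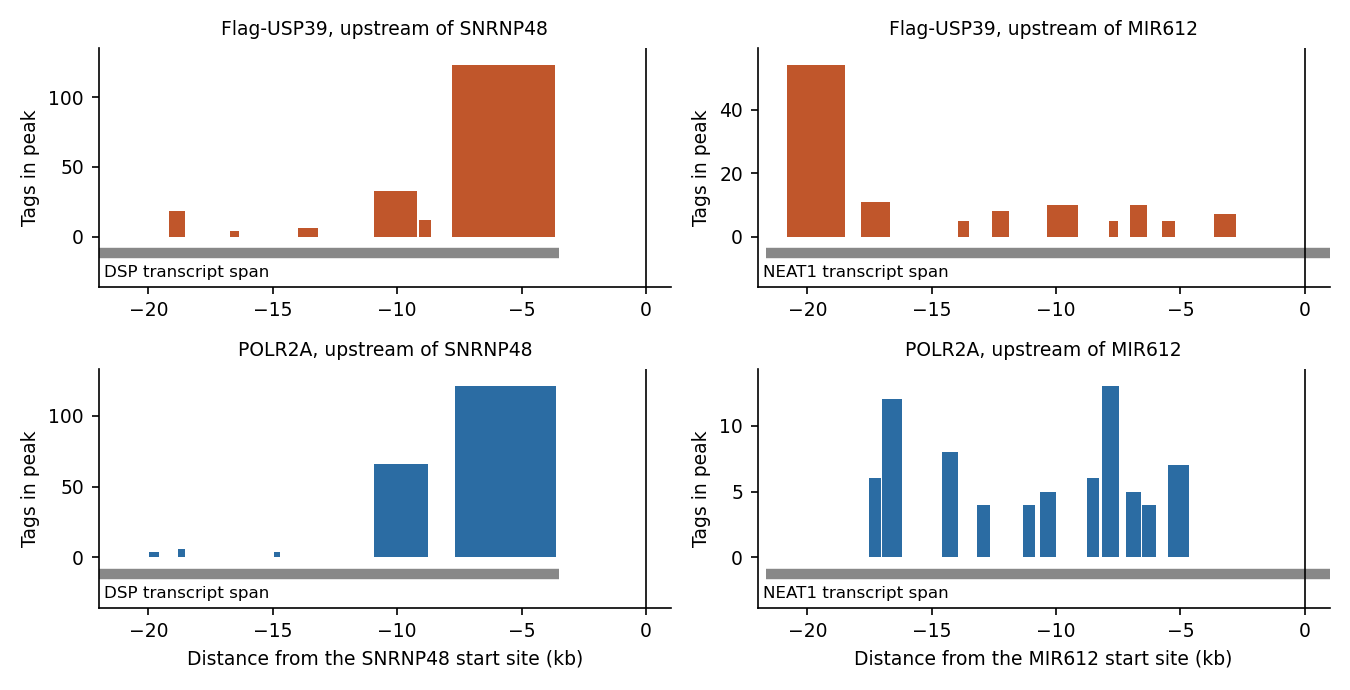
Tags (vertical axes) in each upstream peak assigned to SNRNP48 (left) and MIR612 (right) against distance from that gene's start site (horizontal axes, kb), Flag-USP39 above and POLR2A below, with bar width the peak's length and a grey bar for the span of DSP or NEAT1. At SNRNP48 the peak nearest the start has 123 Flag-USP39 and 121 POLR2A tags, and at MIR612 the far Flag-USP39 peak of 54 tags has no POLR2A upstream partner.

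Other surrounding genes appear in both lists. SRRM2, which encodes a serine and arginine rich splicing cofactor, held 3 Flag-USP39 peaks with 34 tags and 3 POLR2A peaks with 19 tags, all assigned to SRRM2-AS1. COL1A1, a chain of type I collagen, held 2 peaks with 26 tags for Flag-USP39 and 3 peaks with 28 tags for POLR2A, assigned to HILS1. EIF4B, a translation initiation factor, held 13 tags in 1 Flag-USP39 peak and 16 tags in 2 POLR2A peaks, assigned to TNS2. The keratin genes KRT86, KRT17, KRT6A, KRT6B, KRT6C, KRT74 and KRT31 were surrounding genes in both lists and are described below. KDM5B, a histone demethylase, held a Flag-USP39 peak of 16 tags 96.4% along its span, assigned to SYT2, which no POLR2A peak overlapped.

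Other surrounding genes carried more peaks or tags in the POLR2A list. TUBA1B, an alpha tubulin gene, held a POLR2A peak of 22 tags assigned to LMBR1L, where the Flag-USP39 list had an exon peak of 20. CCND2, a cyclin of the G1 phase, held 1 Flag-USP39 peak of 3 tags and 7 POLR2A peaks with 41 tags. SCD, which desaturates fatty acids, held 4 POLR2A peaks with 32 tags. EEF2 held 2 Flag-USP39 peaks, of 6 and 3 tags, and 3 POLR2A peaks with 18 tags, 80.9% to 98.1% along, assigned to DAPK3, beside a POLR2A promoter peak of 5 tags. HNRNPA2B1 held 2 POLR2A peaks with 18 tags, assigned to CBX3, beside a promoter peak of 14. Differences in class between the lists of this kind concern labels at one place: 1 position can be upstream in one list and exon in the other.

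Overlap with the other antibody was low over all upstream peaks and high among the largest. Of Flag-USP39 upstream peaks 108 met a POLR2A peak by at least 1 bp, 7.19% (5.99 to 8.61), against 6.04% of all Flag-USP39 peaks. Of POLR2A upstream peaks 124 met a Flag-USP39 peak, 6.37% (5.37 to 7.55), against 5.10% of all POLR2A peaks. With a score of at least 50 in both lists the shares were 6.19% for Flag-USP39 and 11.2% for POLR2A. The peak met was itself upstream for 103 of the Flag-USP39 and 106 of the POLR2A peaks, and was an exon peak for 2 and 11. By tags, the Flag-USP39 share was 2.84% under 6 tags, 16.1% at 6 to 9, 78.6% at 10 to 19 and 93.8% (15 of 16) at 20 or more. The POLR2A share was 2.63%, 12.6%, 44.6% and 58.3% (21 of 36) over the same steps. In the rest of each list, peaks of 20 or more tags overlapped in 94.2% of cases for Flag-USP39 and 70.8% for POLR2A. Both lists share 1 input, and its part in the overlap was not tested.

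**Figure D4:**
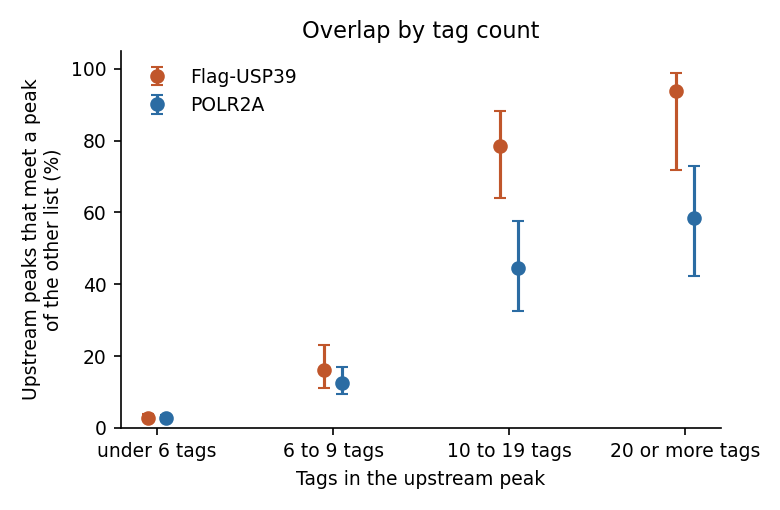
Share of upstream peaks (vertical axis, %) that overlap any peak of the other list, by the tags in the upstream peak (horizontal axis), Flag-USP39 left and POLR2A right, with 95% Wilson intervals. In both lists the share is higher at each step, up to 93.8% for Flag-USP39 and 58.3% for POLR2A.

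Peaks inside another gene overlapped more often than the others. The share was 14.9% (11.4 to 19.3) against 5.19% (4.07 to 6.60) for Flag-USP39 and 13.1% (10.4 to 16.4) against 4.16% (3.25 to 5.31) for POLR2A. Paired 1 to 1, there were 102 places with an upstream peak in both lists, 42 of them (41.2%) inside another gene. Flag-USP39 had more tags at 42 of the 102, POLR2A at 54, and 6 were equal. The tags of the pairs rank together with a Spearman coefficient of 0.645 over 102 pairs, a description only, since the pairs share cells and input. Both peaks had 10 or more tags at 30 pairs.

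The largest upstream peak of both lists was the same. It lay 4768 bp before LOC101927914, an uncharacterised RNA gene, at chr7:157253871-157254442, with 368 Flag-USP39 tags (1786-fold) against 387 POLR2A tags (1465-fold). Near-equal counts were also found before TTYH1, a membrane protein gene (50 Flag-USP39 and 58 POLR2A tags), STEAP1B (44 and 48), ATP4A, the catalytic subunit of the gastric proton pump (36 and 33), and NECTIN1, an adhesion receptor (32 and 27). The peaks before LOC101927914, TTYH1, STEAP1B, ATP4A and NECTIN1 had no promoter peak of their assigned gene in either list and no listed gene around their centre.

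At other shared places POLR2A tags were several times as many. Upstream of FAM231C, whose 1 transcript the tables place at 2 loci of chromosome 1, so that tags of copies may be shared, the Flag-USP39 peaks had 19 and 15 tags and the POLR2A peaks 134 and 136. Upstream of LOC105376805 the counts were 22 for Flag-USP39 and 115 for POLR2A. EAPP, an E2F-associated factor, had 21 and 15 Flag-USP39 tags and 75 and 60 POLR2A tags at 2 upstream places. SIRT4, a mitochondrial sirtuin, had 5 and 6 Flag-USP39 tags and 37 and 28 POLR2A tags. POLR2A had at least 2 times the Flag-USP39 tags at 16 of the 102 pairs, and Flag-USP39 at least 2 times the POLR2A tags at 9.

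**Figure D5:**
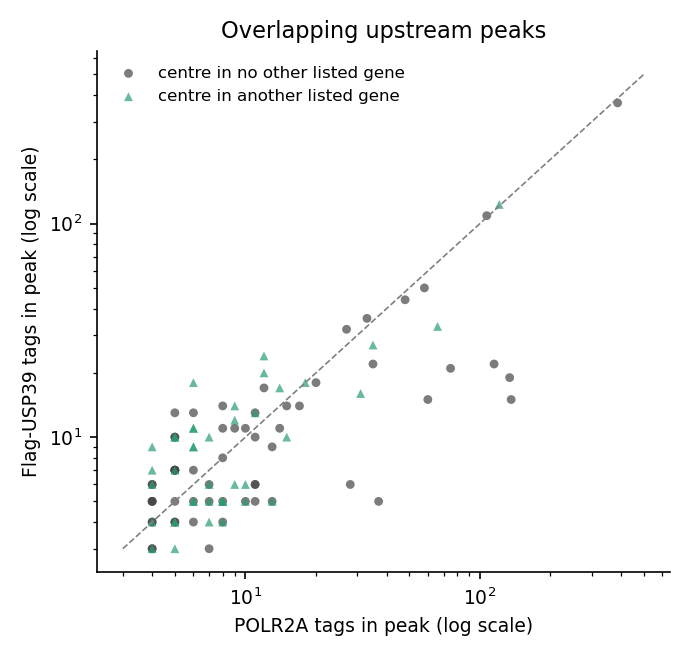
Flag-USP39 tags (vertical axis, log scale) against POLR2A tags (horizontal axis, log scale) at the 102 places with an upstream peak in both lists, triangles where the Flag-USP39 peak is centred in another listed gene and circles elsewhere, dashed line for equal counts. The largest pair has 368 Flag-USP39 and 387 POLR2A tags, and a group of circles below the line has up to 136 POLR2A tags with 22 or fewer Flag-USP39 tags.

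Of the largest POLR2A upstream peaks, 15 had a gene of a small structural RNA near their assigned gene. Small nuclear RNAs (U genes, RNU) form the spliceosome and small nucleolar RNAs (SNORD, SNORA) guide or process ribosomal RNA. Several are made by polymerase II from short genes of their own. By RefSeq GRCh38.p14, a small RNA gene lay within 20 kb of the assigned gene for 15 of the 36 POLR2A upstream peaks with 20 or more tags, 41.7% (27.1 to 57.8), against 5.93% (4.95 to 7.10) of those under 10 tags. For Flag-USP39 it was 2 of 16, 12.5% (3.50 to 36.0), against 5.75% (4.66 to 7.07). The distance is from the gene, not from the peak, so it names neighbours and not the source of the tags.

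The neighbours include genes of several spliceosomal RNAs. The assigned gene SIRT4 neighbours RNU4-1 and RNU4-2, genes of U4 small nuclear RNA. PARP16, an ADP-ribosyltransferase gene, neighbours RNU5A-1 and RNU5B-1, genes of U5, and had POLR2A upstream peaks of 28 and 24 tags with no Flag-USP39 partner. KIF2C neighbours RNU5D-1 and RNU5F-1 and its POLR2A peaks of 35 and 27 tags had no partner either. LINC00854 neighbours RNU2-1, a gene of U2, with a POLR2A peak of 20 tags and no partner. LOC105376805 neighbours RNU1-2, a gene of U1.

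Other neighbours were small RNAs of ribosomal RNA processing and of protein export. GRAP and GRAPL, adaptor genes, neighbour SNORD3B-1, SNORD3B-2 and SNORD3D, genes of the U3 small nucleolar RNA, and the POLR2A upstream peaks of GRAP (82 and 64 tags) and GRAPL (59 tags) had no Flag-USP39 partner. VAMP2, a vesicle SNARE gene, neighbours SNORD118, the gene of U8, with a POLR2A peak of 21 tags and no partner. NEMF neighbours RN7SL2 and RN7SL3, genes of the signal recognition particle RNA, which polymerase III makes. There the counts were near equal, 109 Flag-USP39 tags at chr14:50329190-50329630 against 107 POLR2A tags.

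Of 36 POLR2A upstream peaks with 20 or more tags 15 had no partner. Besides those named they included ANKRD30BL (102 tags, 5.90-fold), LOC101927468 (33), MIR7641-2 (28), TBX2 (25) and DUSP5P1 (21). Of the 16 Flag-USP39 peaks only that of ANKRD30BL (20 tags, 5.12-fold) had none. The ANKRD30BL peaks were low in fold for their tags, as were those of MIR7641-2 (6.08-fold) and DUSP5P1 (9.17-fold) in the POLR2A list. Fold enrichment was under 10 at 1 of the 16 Flag-USP39 and 4 of the 36 POLR2A peaks of this size.

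Keratin genes had upstream peaks at a larger share than protein-coding genes as a whole in both lists. Keratins are the intermediate filament proteins of epithelia, and their genes stand in a type II cluster on chromosome 12 and a type I cluster on chromosome 17. In the Flag-USP39 list 20 upstream peaks with 157 tags were assigned to 11 keratin genes, 11 of 55 protein-coding keratin genes, against 4.95% of all protein-coding genes. In the POLR2A list 27 peaks with 180 tags were assigned to 16 keratin genes, 1 of them the pseudogene KRT42P, and 15 of the 55 had a peak, against 6.04%. In the Flag-USP39 list 19 of the 55 keratin genes had a promoter peak, against 2.19% of protein-coding genes, and in the POLR2A list 19 of the 55, against 9.48%. Of the keratin genes with an upstream peak 8 also had a promoter peak in each list, which is 14.8% of all 54 such genes for Flag-USP39 and 2.92% of 274 for POLR2A.

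Most keratin upstream peaks lay in the body of the neighbouring keratin. This was so for 18 of the 20 Flag-USP39 and 19 of the 27 POLR2A peaks, with KRT31 peaks in LOC100505782 not counted. The peak assigned to KRT75 was centred 94.3% along KRT6B with 24 tags for Flag-USP39 and 92.6% along with 12 for POLR2A. That assigned to KRT6C was centred 91.9% along KRT6A with 18 Flag-USP39 tags and 94.1% along with 18 POLR2A tags. The peak assigned to KRT71 was centred 91.1% along KRT74 with 10 Flag-USP39 tags and 91.7% along with 15 POLR2A tags. KRT6A, KRT6B and KRT6C, the keratins of wounded and fast-growing epithelium, are near-identical copies, so tags could have been split between them and their separate counts are uncertain.

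The hair keratin KRT81 and the epidermal keratin KRT16 show the same layout with several peaks each. KRT81 had 5 Flag-USP39 peaks of 7, 6, 5, 5 and 11 tags and 4 POLR2A peaks of 4, 4, 6 and 6 tags, all within KRT86 and between 78.8% and 99.0% of its span. KRT16 had 3 Flag-USP39 peaks of 7, 10 and 5 tags and 3 POLR2A peaks of 5, 7 and 10 tags, all within KRT17. At KRT16 all 3 Flag-USP39 peaks met a POLR2A peak. At the hair keratin KRT31 the body peaks, assigned to LOC100505782, had 20 Flag-USP39 tags and 12 POLR2A tags at the larger one. In all, 12 of the 20 Flag-USP39 and 13 of the 27 POLR2A keratin upstream peaks met a peak of the other list.

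The counts for the other lists stand beside the share of all protein-coding genes with an upstream peak, 4.95% for Flag-USP39 and 6.04% for POLR2A. Of 95 keratin-associated protein genes 0 had a Flag-USP39 upstream peak and 2 a POLR2A one, and of 39 HOX genes 0 and 4 (10.3%). The POLR2A peaks of HOXB2, a segment identity gene, had 13 and 11 tags and lay in HOXB3. Of 35 SR and hnRNP splicing regulators 3 had one in each list (8.57%), and of 50 tri-snRNP core genes 1 had a Flag-USP39 peak (SART1) and 2 a POLR2A peak (SNRPA and SNRPD1). Of 30 housekeeping genes 2 had an upstream peak in each list (6.67%).

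Of 86 genes with histone symbols 1 had an upstream peak for Flag-USP39 (1.16%) and 7 for POLR2A (8.14%), among them H1-10-AS1, an antisense RNA gene and no histone gene. Ribosomal protein genes had one at 4 of 87 (4.6%) in each list. Immediate early genes, which growth signals switch on within minutes, had one at 4 of 30 for Flag-USP39 (13.3%, EGR1, FOSL2, IER2 and KLF6), against 4.95% of all protein-coding genes, and at 5 of 30 for POLR2A (16.7%, DUSP1, DUSP6, EGR2, EGR3 and SRF), against 6.04%. The upstream peaks of these immediate early genes had at most 4 tags in either list, where the smallest peaks had 3 Flag-USP39 or 4 POLR2A tags. Heat shock genes had an upstream peak at 0 and 1 of 18. Ovarian cancer genes had one at 0 of 33 for Flag-USP39 and 3 of 33 for POLR2A (9.09%, CTNNB1, NRAS and PAX8). Markers of other cell types had one at 2 of 25 for Flag-USP39 (MAP2 and TNNT2) and 1 of 25 for POLR2A (RBFOX3). Olfactory receptor genes, which are silent outside nasal epithelium, had one at 12 of 395 (3.04%) for Flag-USP39 and 11 of 395 (2.78%) for POLR2A, with at most 8 tags. ZNF genes had one at 22 of 512 (4.30%) for Flag-USP39 and 26 of 512 (5.08%) for POLR2A.

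Shares of noncoding RNA genes with an upstream peak are given beside those of protein-coding genes, 4.95% for Flag-USP39 and 6.04% for POLR2A. The annotation release behind the peaks is not stated, and a gene absent from it could not be named in either list. A share under that of protein-coding genes may therefore not be a property of the genes. For genes with symbols that begin with MIR, some of them microRNA host genes, it was 83 of 2000 (4.15%) for Flag-USP39 and 112 of 2000 (5.60%) for POLR2A. For LINC genes it was 85 of 2306 (3.69%) and 86 of 2306 (3.73%), and for antisense RNA genes 72 of 2064 (3.49%) and 96 of 2064 (4.65%). Small nuclear RNA genes were themselves named at 2 of 44 in each list (4.55%), and small nucleolar RNA genes at 11 of 568 (1.94%) for Flag-USP39 and 8 of 568 (1.41%) for POLR2A. By kind, 71.0% of genes with a Flag-USP39 upstream peak were protein-coding and 16.5% were long noncoding RNA genes, against 68.1% and 12.6% of genes with a promoter peak. For POLR2A it was 70.9% and 16.1%, against 81.1% and 8.38%.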

How the data were processed

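ChIP-seq peaks of A2780 cells were used as deposited, 1 table per antibody (Flag-USP39 and POLR2A), each against 1 shared input. Per the submitters' processing notes, Bowtie2 2.2.4, MACS 1.4.3 and build hg19 were used; no source used here gives duplicate handling, the annotation release or library totals. Per the file headers, the deposited tag values are raw counts per peak, scores as deposited hold the log10 of the p-value times minus 10, with a cap at 3100, the deposited fold enrichment is a ratio over background, and the deposited FDR is in percent. Tables list a peak once per transcript; 1 row per peak was kept, that with the nearest start site, and every peak had 1 class over all its rows.

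Groups came from the labels' antibody. Surrounding genes were found from transcript starts and ends of both tables. Overlap needed 1 bp. Shares carry 95% Wilson intervals and medians binomial order-statistic intervals, for counting error over peaks that are not independent; no test was made with 1 library per group. RefSeq GRCh38.p14 gave gene kinds, neighbours and promoter sequences, matched by transcript accession for 12088 of 12320 Flag-USP39 and 16773 of 17069 POLR2A transcripts. Peak sequences were not printed, since no hg19 genome was used here. Members and gene lists were chosen with earlier results of these data known. Genes named were, per antibody, the 10 upstream peaks with most tags, the 10 with highest fold, the 5 genes with most peaks and the 10 largest with a promoter peak, the 10 largest pairs, up to 4 members per gene list and the peaks at each limit. A few of these genes are not reported here. Surrounding genes, neighbouring small RNA genes, genes that make up a count and the other pairs named were chosen after their values were seen. The steps that keep 1 row per peak, find overlaps and find surrounding genes were tested on simulated data, and classes were taken as deposited. Alternatives were score thresholds of 50 and 100, other row choices, chromosomes, promoter and overlap definitions. Python 3.11.15, pandas 2.3.3 and scipy 1.17.1 were used.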

Additional observations from a re-analysis of the deposited data

How the results depend on the processing

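Of 74 alternative values for 10 results, 49 stayed within the interval of the reported value and 25 moved outside it. Tied rows and the choice of chromosomes moved none. Counting a peak as upstream by any of its rows could move none, since every peak had 1 class over all its rows. Its values are among the 49 and are no check. A score of at least 50 in both lists took the POLR2A values to 9.35% with 10 or more tags, 12.0% of genes with a promoter peak and 11.2% overlap. A score of at least 100 (p of 1e-10) keeps mainly large peaks: for Flag-USP39 the upstream share was 15.2%, 10 or more tags 82.8%, promoter peak 8.16% and overlap 51.7%, and for POLR2A 10 or more tags 93.1%, promoter peak 9.84%, overlap 41.7% and median distance 9914 bp. The POLR2A promoter share was 19.7% with a promoter peak on any row, and the POLR2A overlap 8.07% with gaps of up to 500 bp. The remaining choices were added after the data were seen. Leaving out peaks centred in another listed gene gave, for Flag-USP39, an upstream share of 11.1%, 2.76% with 10 or more tags, 2.92% with a promoter peak and 5.19% overlap, and for POLR2A 11.2% upstream, 13.2% with a promoter peak and 4.16% overlap. Peaks with 10 or more tags alone gave, for Flag-USP39, 17.2% upstream, 8.51% with a promoter peak and 56.9% overlap, and for POLR2A 15.5% upstream and 35.9% overlap. No paired analysis was possible because each group has 1 library and no replicate number. A median of 4 tags per peak and 1 library per antibody limit every value, and sites under 3 or 4 tags could not be listed.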
